A study of Mus musculus with 48 samples.

Results

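Tcf7, Lef1, Bach2, Satb1, Foxo1, Klf2, Klf3, Id2 and Id3 encode 9 nuclear regulators known from the resting, naive, memory or effector states of T cells. They were taken as a list of gene names and matched to gene IDs through the annotation that came with the single-cell data. All 9 were present among the 52636 genes of the iNKT cell table and the 35661 genes of the donor T cell table, and all 9 passed the low-count filter of every fit. Open chromatin around them was read from the 82 of 54524 ATAC regions that overlapped a gene body widened by 10 kb on each side.

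The study measured invariant natural killer T (iNKT) cells, T lymphocytes that see glycolipids on CD1d and mature in the thymus into sublineages, and asked how these sublineages differ and what they do to donor T cells in graft-versus-host disease. Thymic iNKT17, iNKT2 and iNKT1 cells of FVB mice were sorted, with 2 RNA-seq and 2 ATAC-seq libraries per sublineage. Total thymic iNKT cells of 2 FVB/N mice, 8 weeks old, were profiled as single cells. Donor conventional CD8 and CD4 T cells of FVB mice were profiled by RNA-seq on day 7 after transfer into Balb/C hosts of a major mismatch, with transfer of iNKT17, iNKT2 or iNKT1 cells or without iNKT cells (untreated), and on day 0 before transfer, from spleen and lymph nodes. Each of these 5 groups held 3 CD8 and 3 CD4 libraries. Apart from the day 0 cells, every donor cell had passed through an allogeneic host, so host and time cannot be told apart between day 7 and day 0. The ages of the bulk donors and hosts are not given in the sources used here, and whether libraries of a group came from separate animals is not given either; p-values therefore cover no more than the variation from library to library, part or all of which may be technical.

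TCF-1 (from Tcf7) and LEF-1 are HMG-box factors at the end of the Wnt pathway that keep naive and memory T cells and their precursors. BACH2 is a repressor that restrains effector genes, and SATB1 is a chromatin organiser of T cell development. FOXO1 enters the nucleus when growth signalling is low and drives homing and survival genes; KLF2, one of its targets, drives S1pr1, which lets T cells leave the thymus. KLF3 binds the same CACCC boxes as a repressor. ID2 and ID3 lack a DNA-binding domain and block E proteins, with ID2 known from effector and innate-like cells and ID3 from naive, memory and iNKT precursor cells.

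Promoters of 3 members are shown, because the ATAC region over their start site differed from iNKT1 cells in both other sublineages and the regions around them moved in a single direction: lower at Klf2 and Klf3, higher at Id3. Each is 300 bases on the plus strand from RefSeq (GRCm38.p6, the mm10 build the regions use), spanning 250 bases before to 50 bases after the annotated start, for Klf2 chr8:72318812-72319111, for Klf3 chr5:64803271-64803570 and for Id3 chr4:136143572-136143871. Capitals mark the KLF box CACCC on either strand (GGGTG on the printed strand).
Klf2: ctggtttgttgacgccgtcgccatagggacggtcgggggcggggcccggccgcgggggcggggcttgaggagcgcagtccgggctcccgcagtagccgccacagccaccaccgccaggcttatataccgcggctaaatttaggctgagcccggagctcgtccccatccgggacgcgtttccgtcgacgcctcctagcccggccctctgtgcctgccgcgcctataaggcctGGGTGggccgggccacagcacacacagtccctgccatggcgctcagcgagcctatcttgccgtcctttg
Klf3: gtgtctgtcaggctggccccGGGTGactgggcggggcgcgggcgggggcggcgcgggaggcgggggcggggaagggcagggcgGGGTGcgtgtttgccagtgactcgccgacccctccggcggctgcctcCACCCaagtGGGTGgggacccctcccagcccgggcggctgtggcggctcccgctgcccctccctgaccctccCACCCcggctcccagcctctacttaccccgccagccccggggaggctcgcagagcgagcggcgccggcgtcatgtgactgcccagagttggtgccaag
Id3: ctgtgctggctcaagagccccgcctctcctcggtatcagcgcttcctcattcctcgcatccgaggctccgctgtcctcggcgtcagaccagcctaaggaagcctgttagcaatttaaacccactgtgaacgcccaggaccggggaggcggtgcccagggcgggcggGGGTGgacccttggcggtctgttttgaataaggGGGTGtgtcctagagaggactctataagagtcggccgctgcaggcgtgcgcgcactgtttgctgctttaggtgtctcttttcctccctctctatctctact
The KLF box was present once in the Klf2 promoter, 5 times in that of Klf3 and 2 times in that of Id3. It was a common word: 57.5% of the 32817 RefSeq mouse promoter windows of this length held at least 1. The E-box CAGGTG (20.2% of windows), the FOXO word GTAAACA (3.65%) and the TCF/LEF word CTTTGA (16%), each searched on both strands, were not in these 3 windows. No 2 motifs therefore overlapped.

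Library totals were 26811373 to 33688697 counts for iNKT RNA, 13299586 to 42964216 for ATAC regions, 26134241 to 33658426 for CD8 and 25323879 to 37055182 for CD4 libraries. edgeR's common biological coefficient of variation between libraries of a group came to 1.3 (iNKT RNA), 0.298 (ATAC), 0.196 (CD8) and 0.288 (CD4). In iNKT RNA that of the members ran from 0.245 (Id2) to 0.497 (Klf2), apart from Bach2 (1.34) and Klf3 (1.52). Markers were read for the sorted sublineages. Summed CPM (counts scaled to library size with TMM factors) of the iNKT1 markers Tbx21, Il2rb and Ifng was 281 to 307 in iNKT17, 163 to 183 in iNKT2 and 2220 to 2350 in iNKT1 cells. The iNKT2 list (Il4, Il17rb, Ccr4) gave 273 to 400 in iNKT2 cells but also 115 to 264 in iNKT17 cells. CD4 day 0 replicate 3 stood apart from the other 2 libraries of its group. The Klf2 change by day 7 in CD4 cells is given with and without it. For other members and comparisons it was among the libraries left out in turn, and no separate value is given.

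In sorted thymic iNKT cells the naive and memory factors split by sublineage. Tcf7 and Id3 were higher in both iNKT17 and iNKT2 cells than in iNKT1 cells, Lef1 was higher in iNKT2 cells, Klf2 was lower in iNKT2 cells, and Id2 was higher in iNKT17 cells. Satb1 was lower in iNKT17 than in iNKT2 cells. With edgeR's quasi-likelihood test and Benjamini-Hochberg adjustment over all genes, 4 of 9 members passed an adjusted p of 0.05 between iNKT2 and iNKT1 (3 higher, 1 lower; 1.29% of all genes passed), 3 of 9 between iNKT17 and iNKT1 (3 higher; 2% of all genes) and 1 of 9 between iNKT17 and iNKT2 (lower; 0.711% of all genes). The median log2 fold change of the members was 0.70, 1.21 and 0.25 in these comparisons, that of all genes 0.09, -0.03 and -0.09. In bulk samples fewer cells of a type and less RNA per cell cannot be told apart.

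Tcf7 stood at 927.9 and 903.5 CPM in iNKT17 cells and at 738.7 and 805.9 CPM in iNKT2 cells, against 291.1 and 377.4 CPM in iNKT1 cells. All libraries of iNKT17 and iNKT2 cells lay above both iNKT1 libraries. The log2 fold change was 1.45 ± 0.22 for iNKT17 over iNKT1 (SE; adjusted p = 0.00784, edgeR) and 1.21 ± 0.22 for iNKT2 over iNKT1 (adjusted p = 0.0306); the second call was lost without iNKT2 replicate 2 (adjusted p = 0.0553) and without iNKT1 replicate 1 (adjusted p = 0.147). Its partner Lef1 had 107.9 and 71.77 CPM in iNKT17 cells and 151.7 and 236.3 CPM in iNKT2 cells, against 10.05 and 27.67 CPM in iNKT1 cells. Again no iNKT1 library reached the others. Lef1 rose in iNKT2 cells (log2 3.36 ± 0.63, adjusted p = 0.035, edgeR; 0.0727 without iNKT2 replicate 2), while the value in iNKT17 cells, 2.25 ± 0.60, did not pass with edgeR (adjusted p = 0.133) and passed with DESeq2 (0.00114).

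Id3 had 117.7 and 155.9 CPM in iNKT17 cells and 198.5 and 236 CPM in iNKT2 cells, against 15.64 and 22.31 CPM in iNKT1 cells. It was the member with the smallest adjusted p between iNKT2 and iNKT1 (log2 3.52 ± 0.45, adjusted p = 0.00441, edgeR) and it also rose in iNKT17 cells (2.85 ± 0.44, adjusted p = 0.00843; 0.104 when iNKT2 libraries were left out of the fit). Its relative Id2 did not mirror it. Id2 stood at 1521 and 1459 CPM in iNKT17 cells and at 1078 and 1095 CPM in iNKT2 cells, against 686.4 and 604.4 CPM in iNKT1 cells, so the 3 sublineages did not overlap. The call was made for iNKT17 over iNKT1 (log2 1.21 ± 0.18, adjusted p = 0.00743, edgeR; 0.0526 without iNKT1 replicate 2); iNKT2 over iNKT1, at 0.75 ± 0.18, did not pass with edgeR (adjusted p = 0.109) and passed with DESeq2 (1.91e-07).

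Klf2 ran the other way. It had 35.1 and 31.13 CPM in iNKT17 cells and 10.56 and 32.31 CPM in iNKT2 cells, against 174.1 and 289.9 CPM in iNKT1 cells, and every iNKT1 library lay above all others. The fall was called in iNKT2 cells (log2 -3.44 ± 0.65, adjusted p = 0.0378, edgeR; 0.278 without iNKT1 replicate 2). In iNKT17 cells the log2 fold change was -2.81 ± 0.64 and missed the threshold with edgeR (adjusted p = 0.0664), while it passed with DESeq2 (3.46e-05). Klf3 had 1 and 860 raw counts in iNKT17 libraries, 6 and 834 in iNKT2 libraries and 5938 and 1741 in iNKT1 libraries, that is 0.03217 and 33.34, 0.2031 and 30.21, and 194.3 and 52.13 CPM. Both iNKT1 libraries were the highest, but libraries of 1 sublineage differed so widely that no Klf3 comparison passed (log2 -2.89 ± 2.76 for iNKT17 and -3.02 ± 2.77 for iNKT2 over iNKT1).

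Satb1 ordered the sublineages differently, with iNKT17 lowest. It had 274.7 and 453.3 CPM in iNKT17 cells and 990.5 and 1025 CPM in iNKT2 cells, against 605.2 and 631.2 CPM in iNKT1 cells, with no overlap between any pair of groups. It fell in iNKT17 relative to iNKT2 cells (log2 -1.47 ± 0.26, adjusted p = 0.0438, edgeR; 0.0579 with another set of size factors and 0.177 with iNKT1 left out of the fit). Against iNKT1 cells it did not pass in either direction (-0.76 ± 0.26 for iNKT17, 0.71 ± 0.26 for iNKT2) with edgeR. The iNKT17 value passed as lower with DESeq2 (adjusted p = 0.0459) and, with edgeR, without iNKT17 replicate 2 (log2 -1.16, adjusted p = 0.0106). Foxo1 had 185.3 and 134.7 CPM in iNKT17 cells and 78.29 and 62.63 CPM in iNKT2 cells, against 98.6 and 53.66 CPM in iNKT1 cells, and Bach2 had 57.13 and 32.53, 0.2708 and 10.65, and 11.32 and 7.995 CPM in the same order. Both were highest in the iNKT17 libraries, and neither passed in any of the 3 comparisons with edgeR. Markers of B cells, red cells and immature thymocytes summed to at most 7.50 CPM in any iNKT RNA library. A myeloid list (Lyz2, Csf1r, Cd68, Itgam, Fcer1g) summed to 11.7 to 48.8 in iNKT17, 9.67 to 24.4 in iNKT2 and 193 to 237 in iNKT1 libraries, with Csf1r at 0 in all of them. A stromal or epithelial list of 5 genes summed to 30.4 to 32.6 in iNKT17, 0 to 0.0362 in iNKT2 and 1.9 to 19.1 in iNKT1 libraries, with Col3a1, Krt5 and Krt8 at 0 in all of them. The part of these 2 lists in the results was not tested.

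**Figure D1:**
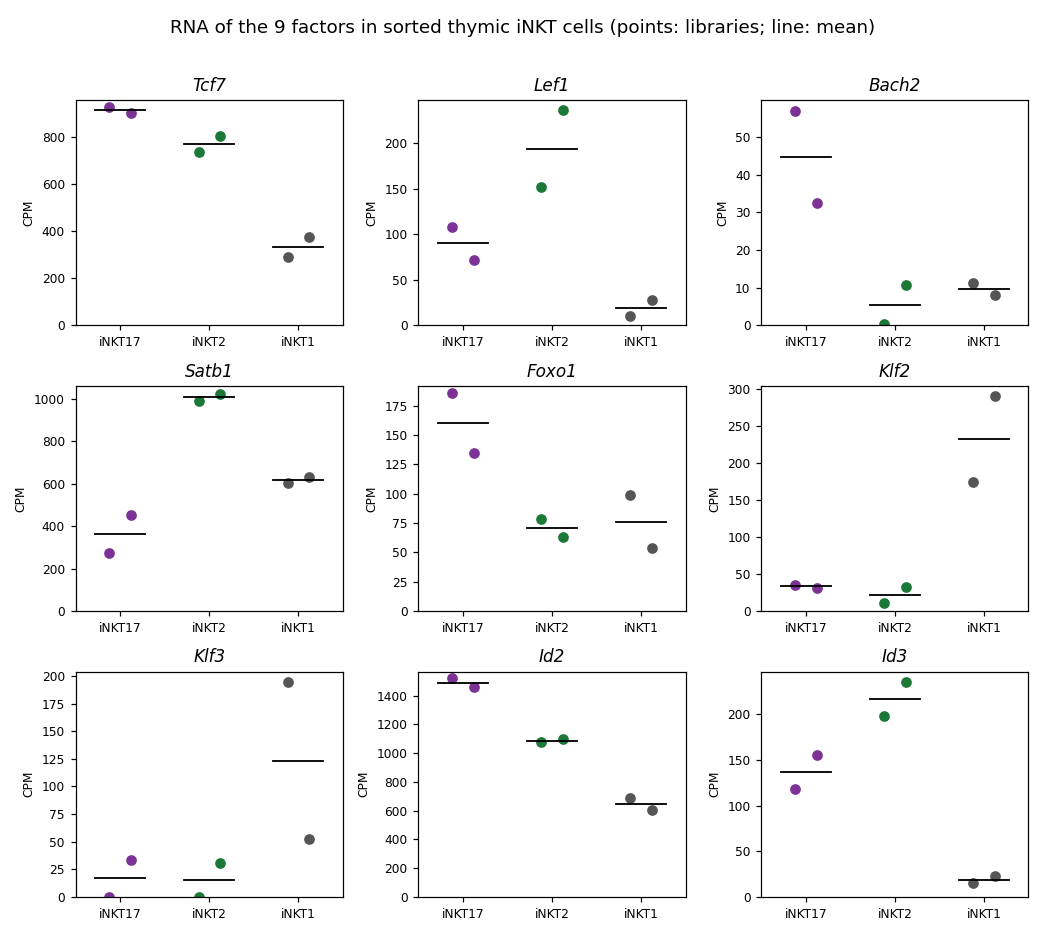
CPM with TMM scaling (linear axis from 0) of each factor in sorted thymic iNKT17, iNKT2 and iNKT1 cells; points are the 2 libraries of a group and lines their mean. Tcf7, Lef1 and Id3 are lowest in both iNKT1 libraries, Klf2 is highest there (174.1 and 289.9 CPM), and the 2 libraries of Klf3 in each group lie far apart.

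Companion genes were counted in the same comparisons. Of all genes, 1.29% passed between iNKT2 and iNKT1, 2% between iNKT17 and iNKT1 and 0.711% between iNKT17 and iNKT2. Of 14 tested genes among TCF/LEF partners and the Wnt pathway, none passed between iNKT2 and iNKT1, 1 was lower in iNKT17 than in iNKT1 cells (Bcl9l, a beta-catenin cofactor), and none passed between iNKT17 and iNKT2. None of 11 other FOXO and KLF genes passed in any of the 3. Of 12 tested FOXO1 and KLF2 targets and naive homing genes, 2 were higher and 1 lower in iNKT2, and 2 higher and 2 lower in iNKT17, than in iNKT1 cells; both sublineages carried Ccr7, the lymph node homing receptor (56.81 and 30.98 CPM in iNKT17, 57.68 and 158.1 CPM in iNKT2, 0.06545 and 0 CPM in iNKT1 cells), and Il6ra, the interleukin 6 receptor (48.61 and 43.23, 232.7 and 336.4, and 0.1963 and 0.05989 CPM). Bcl2, the survival gene, was lower in iNKT2 than in iNKT1 cells (8.09 and 16.12 against 502.8 and 163.9 CPM). Between iNKT17 and iNKT2, 3 of these 12 were higher (Il7r, Gpr183, Itgb7).

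Other quiescence regulators gave 2 higher and 2 lower of 18 in iNKT2, and 3 higher and 2 lower in iNKT17, relative to iNKT1 cells. In these comparisons 1.29% and 2% of all genes passed. Myb, a factor of progenitor and memory cells, had 219.3 and 418.6 CPM in iNKT17 and 227.2 and 121.7 CPM in iNKT2 cells, against 0.1309 and 0.1198 CPM in iNKT1 cells, and Runx1 had 179.4 and 213.4, 71.93 and 74.4, and 0.1963 and 0 CPM. Both passed in both sublineages. Tsc22d3, the glucocorticoid-induced leucine zipper gene, was nearly absent from iNKT17 cells (0.03217 and 0.03877 CPM), against 8.428 and 6.085 CPM in iNKT2 and 93.3 and 234.3 CPM in iNKT1 cells, and was called lower in iNKT17 against each of the others. Among 10 tested effector factors, Maf alone passed, higher in iNKT17 than in iNKT1 cells.

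Chromatin around the 9 genes differed between sublineages at many sites. Of the 82 regions, 43 passed between iNKT2 and iNKT1 (15 higher, 28 lower) and 43 between iNKT17 and iNKT1 (18 higher, 25 lower), beside 38.6% and 37.1% of all regions. Between iNKT17 and iNKT2 only 7 of 82 passed (3 higher, 4 lower), beside 8.34% of all regions. The median log2 fold change of the 82 regions was -0.34 for iNKT2 and -0.37 for iNKT17 over iNKT1, that of all regions 0.06 and 0.07. The counts leaned on single libraries. Without iNKT1 replicate 2 they were 22 and 28 against iNKT1, and the 7 between iNKT17 and iNKT2 became 0 without iNKT2 replicate 2 and 1 without iNKT17 replicate 2, but 20 (11 higher, 9 lower) when the replicate number was a block. Of the 82 regions, 8 also lay within 10 kb of another coding gene (Skp1, Hadh or Gm38457).

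The start-site region tracked the RNA for Klf2 and Id3. Klf2 had a single region, chr8:72318548-72319452 over its promoter, with 55.91 and 56.8 CPM in iNKT17 and 53.65 and 62.61 CPM in iNKT2 cells, against 134.8 and 143.8 CPM in iNKT1 cells. Both iNKT1 libraries were at more than all others, and the log2 fold changes were -1.31 ± 0.18 for iNKT17 (adjusted p = 0.000552, edgeR) and -1.26 ± 0.18 for iNKT2 (adjusted p = 0.000915). At Id3, the start region chr4:136143576-136144051 had 50.58 and 48.04 CPM in iNKT17 and 49.87 and 58.43 CPM in iNKT2 cells, against 33.46 and 32.93 CPM in iNKT1 cells (log2 0.57 ± 0.18, adjusted p = 0.0303, and 0.71 ± 0.18, adjusted p = 0.0127, edgeR). Each of these 2 Id3 calls was lost in 3 of 4 settings that left out 1 library. Its neighbour within the gene, chr4:136144538-136144902, was also higher, with 27.22 and 27.45 CPM in iNKT17 and 22.83 and 24.26 CPM in iNKT2 cells, against 13.65 and 12.27 CPM in iNKT1 cells, and 3 of the 4 Id3 regions were called higher in each sublineage.

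Klf3 gave the most uniform picture, although its RNA had not passed. All 5 of its regions were lower in iNKT17 (log2 -1.47 to -1.87) and in iNKT2 cells (-1.51 to -2.22) than in iNKT1 cells. The start region chr5:64802783-64803849 had 38.88 and 56.32 CPM in iNKT17 and 32.51 and 42.45 CPM in iNKT2 cells, against 142.3 and 206 CPM in iNKT1 cells (log2 -1.87 ± 0.26, adjusted p = 0.000693, and -2.22 ± 0.27, adjusted p = 0.000502, edgeR). With the replicate block it was also called higher in iNKT17 than in iNKT2 cells (log2 0.33, adjusted p = 0.0371, edgeR). Of these 5 regions, 4 also lay within 10 kb of Gm38457.

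At Tcf7, the start site did not follow the RNA. The Tcf7 start region chr11:52282991-52283517 had 20.93 and 14.88 CPM in iNKT17 and 15.77 and 12.84 CPM in iNKT2 cells, against 19.27 and 18.42 CPM in iNKT1 cells, and did not pass. Of the 9 Tcf7 regions the 1 called higher in both sublineages was chr11:52240820-52241472, downstream of the gene and near Skp1, with 8.11 and 7.428 CPM in iNKT17 and 8.191 and 11.26 CPM in iNKT2 cells, against 2.969 and 2.374 CPM in iNKT1 cells (log2 1.53 ± 0.29 and 1.85 ± 0.30). A region within the gene, chr11:52268086-52268791, was lower in iNKT17 cells (log2 -0.82 over iNKT2, a call lost in 3 of 4 settings that left out 1 library, and also past the threshold over iNKT1). The Lef1 region nearest the 5′ end, chr3:131111118-131111299, which does not overlap a RefSeq promoter window, did not pass in any comparison. Another Lef1 region, chr3:131111893-131112821, overlaps such a window, and its values are not given here. The strongest Lef1 site lay downstream of the gene and within 10 kb of Hadh, at chr3:131232421-131233000: it had 7.248 and 11.95 CPM in iNKT17 and 2.611 and 1.339 CPM in iNKT2 cells, against 0.6328 and 0.5716 CPM in iNKT1 cells. It was graded, highest in iNKT17 (log2 3.98 ± 0.45 over iNKT1, adjusted p = 0.000249; 2.26 ± 0.42 over iNKT2, adjusted p = 0.0127, edgeR, lost without iNKT2 or iNKT17 replicate 2) and intermediate in iNKT2 (1.72 ± 0.45 over iNKT1, adjusted p = 0.0157). By contrast chr3:131157306-131157870 in the gene body was lower in both (log2 -1.98 in iNKT17 and -1.47 in iNKT2 over iNKT1).

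Bach2, with 22 regions the largest locus, held changes in both directions. The region at the 5′ end of its gene span, chr4:32238331-32240080, which does not overlap the RefSeq promoter window, was lower in iNKT17 (63.36 and 82.72 CPM) and iNKT2 (42.34 and 60.8 CPM) than in iNKT1 cells (103.2 and 168.3 CPM), with log2 fold changes of -0.89 (adjusted p = 0.0319, edgeR) and -1.40 (adjusted p = 0.0049). The iNKT17 call was lost without iNKT1 replicate 2 (log2 -0.54, adjusted p = 0.224, edgeR) and without iNKT17 replicate 1 (adjusted p = 0.126), and with the replicate block the region was also higher in iNKT17 than in iNKT2 cells (log2 0.51, adjusted p = 0.0101). Inside the gene, chr4:32424261-32424969 went the opposite way, with 7.755 and 17.12 CPM in iNKT17 and 3.584 and 4.804 CPM in iNKT2 cells, against 0.7058 and 0.9234 CPM in iNKT1 cells (log2 3.95 ± 0.45 and 2.37). This region also separated iNKT17 from iNKT2 (log2 1.58, adjusted p = 0.0456), as did chr4:32335528-32336019 in the other direction (-1.50, adjusted p = 0.0283; lost without iNKT2 or iNKT17 replicate 2). In all, 8 Bach2 regions were higher and 7 lower in iNKT17, and 5 higher and 10 lower in iNKT2, than in iNKT1 cells.

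Satb1 and Foxo1 were mixed as well. The Satb1 region chr17:51806405-51807031 was lowest in iNKT17, with 3.649 and 3.756 CPM, against 7.833 and 9.056 CPM in iNKT2 and 15.16 and 19.3 CPM in iNKT1 cells (log2 -2.22 ± 0.26 over iNKT1 and -1.19 over iNKT2, adjusted p = 0.000276 and 0.0231, edgeR). The downstream region chr17:51735310-51736078 had less signal in iNKT17 than in iNKT2 cells (log2 -1.67 ± 0.29, adjusted p = 0.0103; 0.0526 without iNKT2 replicate 2), and these were the 2 of 11 Satb1 regions that passed in that comparison, both in the direction of the RNA. The Satb1 start region chr17:51832876-51833533 was lower than in iNKT1 cells in both (log2 -0.90 in iNKT17 and -0.96 in iNKT2), and each call was lost in 2 of 4 settings that left out 1 library. At Foxo1 the start region chr3:52268188-52268646 was lower in both (-0.58 and -0.68), but the iNKT17 call was lost in 4 of 4 such settings and the iNKT2 call in 2. Of other Foxo1 regions, chr3:52300587-52301206 was higher in both (2.06 ± 0.35 and 1.21), and chr3:52280760-52281018 was higher in iNKT17 than in iNKT2 (2.48 ± 0.46, adjusted p = 0.0133; lost without iNKT2 or iNKT17 replicate 2) and in iNKT1 cells (1.69). The Id2 start region chr12:25095787-25096347 did not pass, but with the replicate block it was called lower in iNKT17 (log2 -0.44, adjusted p = 0.0053, edgeR) and in iNKT2 (-0.43, adjusted p = 0.00655) than in iNKT1 cells. Another Id2 region, chr12:25092338-25093439, was higher in iNKT17 than in iNKT1 cells (log2 0.67 ± 0.17, adjusted p = 0.013), a call lost in 3 of 4 settings that left out 1 library. In iNKT2 cells 2 of the 4 Id2 regions were lower than in iNKT1 cells, among them chr12:25098781-25099049 (-0.98, adjusted p = 0.00735; lost without iNKT1 replicate 2 or iNKT2 replicate 1).

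**Figure D2:**
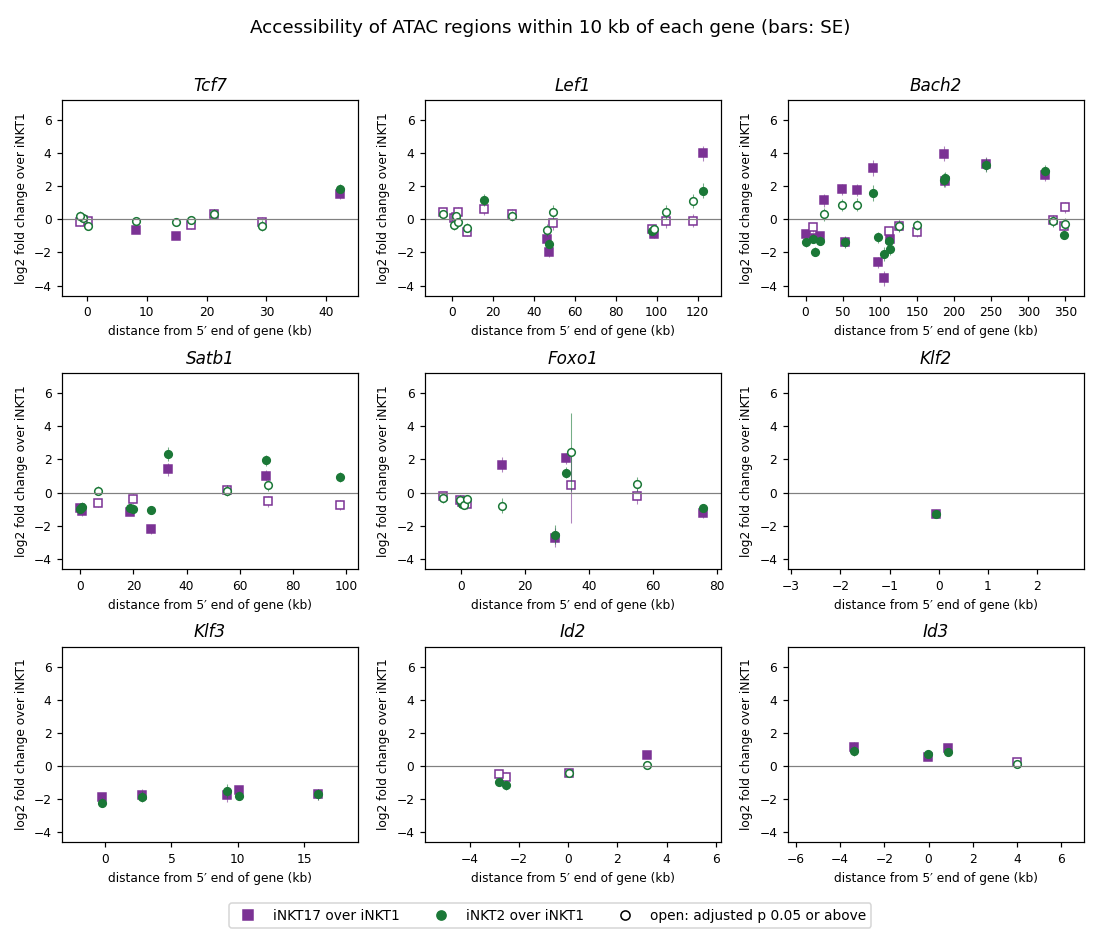
Log2 fold change in accessibility over iNKT1 cells (bars: SE) of each of the 82 regions, by distance from the 5′ end of its gene in kb; purple squares are iNKT17 and green circles iNKT2 cells, open where the adjusted p was 0.05 or above. All Klf3 regions and the Klf2 region lie below 0, 3 of 4 Id3 regions lie above it as filled symbols in both sublineages, and Bach2 has filled symbols on both sides.

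In unsorted thymic iNKT cells the same 9 genes could be ranked by abundance, since counts of 3′ ends depend little on transcript length. The 142 barcodes of thymus 1 and the 146 of thymus 2 with at least 1000 UMIs shared 0 barcodes and had medians of 5210 and 5790 UMIs. Id2 led, with 916 CPM (UMIs scaled to those of all kept barcodes; 95% Poisson interval 852 to 984, counting error only) in thymus 1 and 1100 (1030 to 1170) in thymus 2. Satb1 followed (269 and 263), then Tcf7 (183, interval 155 to 215, and 151, interval 126 to 178) and Id3 (135, interval 111 to 162, and 193, interval 165 to 224). The intervals of Tcf7 and Id3 overlapped within each thymus, in opposite order. Klf2 (89.1 and 99.3) and Lef1 (60.2, interval 44.7 to 79.4, and 95.9, interval 76.7 to 118) came next, then Foxo1 (26.5 and 19) and Klf3 (18.1 and 19), whose intervals overlapped. Bach2 was near the limit of detection, at 3.61 (interval 0.745 to 10.6) and 5.58 (interval 1.81 to 13), from 3 UMIs in thymus 1. With 1 group of 2 mice there was no comparison to test.

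By day 7 after transplantation, donor CD8 T cells had lost RNA of 8 of the 9 factors and gained Id2; all 9 passed, where 60.7% of all genes passed. In CD4 cells 7 passed, 6 lower and Id2 higher, where 35.6% of all genes passed. The median log2 fold change of the members was -1.76 in CD8 and -0.82 in CD4 cells, that of all genes -0.05 and -0.08. Non-T cell markers were higher on day 0. The B cell list summed to 8.14 to 10.7 CPM in CD8 cells on day 7 against 170 to 614 on day 0, and to 2.65 to 3.41 against 412 to 450 in CD4 cells; the myeloid list summed to 214 to 233 against 456 to 1580 in CD8 and to 116 to 173 against 715 to 807 in CD4 cells; the erythroid list summed to 0.731 to 12.4 against 575 to 762 in CD8 and to 2.83 to 8.98 against 2990 to 8990 in CD4 cells. Every gene of these lists was detected in each group but Pax5, at 0 in the CD8 libraries of day 7. Their part in the result was not tested.

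The HMG-box pair fell in both cell types. Tcf7 had 65.67, 60.74 and 99.9 CPM in CD8 cells on day 7, against 1089, 1030 and 1153 CPM on day 0, and 370.5, 361.9 and 432.7 CPM in CD4 cells on day 7, against 1166, 1175 and 774.6 CPM on day 0. Days did not overlap in either, and the fall was far deeper in CD8 (log2 -3.88 ± 0.31, adjusted p = 1.03e-07, edgeR) than in CD4 cells (-1.47 ± 0.16, adjusted p = 8.98e-06). Lef1 had 240.1, 208.5 and 272.9 CPM in CD8 cells on day 7, against 801.1, 788.1 and 819.8 CPM on day 0 (log2 -1.76 ± 0.12), and 343.1, 346.1 and 420.9 CPM in CD4 cells, against 843.4, 835.6 and 977.3 CPM (-1.31 ± 0.14).

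Bach2, the restraint on effector genes, had the deepest fall of the 9 in both. It had 2.859, 2.399 and 4.722 CPM in CD8 cells on day 7, against 82.04, 62.38 and 76.96 CPM on day 0 (log2 -4.50 ± 0.36, adjusted p = 6.89e-08, edgeR). In CD4 cells it had 13.48, 9.491 and 10.55 CPM on day 7, against 81.06, 84.93 and 40.76 CPM on day 0 (-2.67 ± 0.32, adjusted p = 2.05e-05). Satb1 dropped in CD8 cells, with 237.8, 217 and 238.5 CPM on day 7 against 720.7, 690.6 and 759.9 CPM on day 0 (log2 -1.67 ± 0.12, adjusted p = 1.67e-08). In CD4 cells it stayed close, with 568, 535.8 and 662.2 CPM on day 7 against 729.6, 754.3 and 804.2 CPM on day 0. That CD4 call was at the edge (-0.42 ± 0.14, adjusted p = 0.0321, edgeR) and was lost in 5 of 6 settings that left out 1 library.

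In CD4 cells Foxo1 and Klf3 fell and Klf2 did not pass. Foxo1 fell in both, with 107.1, 104.1 and 123.7 CPM in CD8 cells on day 7 against 402.2, 366.9 and 398.6 CPM on day 0 (log2 -1.82 ± 0.10), and 131, 125.8 and 145.6 CPM in CD4 cells against 421, 419.3 and 255.9 CPM (-1.49 ± 0.17). Klf2 fell in CD8 cells, with 322.9, 428.3 and 429.8 CPM on day 7 against 963.3, 836.8 and 919.6 CPM on day 0 (log2 -1.23 ± 0.13, adjusted p = 1.58e-06, edgeR). In CD4 cells its days overlapped, with 639.8, 462.1 and 462.8 CPM on day 7 against 708.3, 709 and 351.7 CPM on day 0, and it did not pass (-0.23 ± 0.24, adjusted p = 0.506, 95% interval -0.70 to 0.25); without CD4 day 0 replicate 3, the lowest of its group, the value was -0.48 and passed (adjusted p = 0.0428). Klf3 fell in both, with 123.2, 99.98 and 161.5 CPM in CD8 cells on day 7 against 359.4, 344.9 and 398.1 CPM on day 0 (log2 -1.54 ± 0.14), and 216.4, 235.1 and 251.8 CPM in CD4 cells against 377.6, 385.1 and 437.2 CPM (-0.82 ± 0.15, adjusted p = 0.000666).

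The inhibitors of E proteins moved apart. Id2 rose in both, with 1080, 890.2 and 966.7 CPM in CD8 cells on day 7 against 365.3, 386.2 and 415.1 CPM on day 0 (log2 1.31 ± 0.10, adjusted p = 3.51e-08, edgeR), and 1421, 1241 and 1449 CPM in CD4 cells against 270.6, 253.4 and 377.9 CPM (2.14 ± 0.24, adjusted p = 1.04e-05). Id3 fell in CD8 cells, with 10.27, 9.471 and 10.39 CPM on day 7 against 58.08, 57.81 and 72.22 CPM on day 0 (log2 -2.66 ± 0.42, adjusted p = 7.21e-05). In CD4 cells the days overlapped, with 41.02, 38.71 and 44.23 CPM on day 7 against 40.78, 34.05 and 50.7 CPM on day 0 (-0.06 ± 0.23, adjusted p = 0.854).

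**Figure D3:**
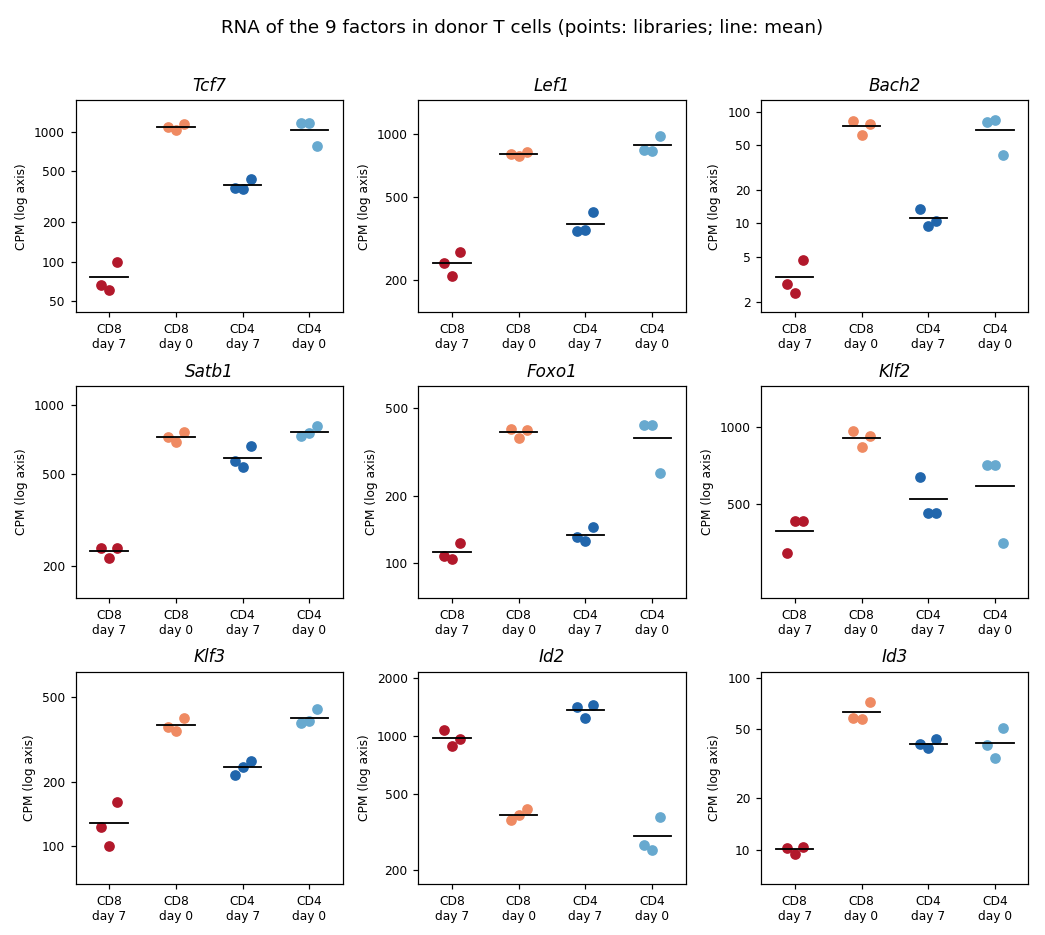
CPM with TMM scaling (log axis, own range per panel) of each factor in untreated donor CD8 and CD4 T cells on day 7 and day 0; points are the 3 libraries of a group and lines their mean. Id3 on day 7 lies near 10 CPM in CD8 cells only, Klf2 overlaps between days in CD4 cells only, and Id2 is the 1 panel in which day 7 lies above day 0 in both.

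Before transfer, on day 0, none of the 9 passed between CD8 and CD4 cells with edgeR, a share near the 8.59% of all genes that passed. At an unadjusted p under 0.05 was 1 member, and 1 passed with DESeq2. That 1 was Klf2, higher in CD8 cells by 0.62 ± 0.20 (log2; adjusted p = 0.0525, edgeR; 0.026 with DESeq2), and it passed with edgeR when CD4 day 0 replicate 1 or 2 was left out (adjusted p = 0.0329 and 0.03). Both of those fits keep CD4 day 0 replicate 3, the lowest of its group for Klf2 (351.7 CPM, against 708.3 and 709 CPM). On day 7, 6 of 9 passed, all lower in CD8 than in CD4 cells, where 14.5% of all genes passed. These were Tcf7 (log2 -2.37 ± 0.25, adjusted p = 3.98e-07, edgeR), Id3 (-2.04 ± 0.36), Bach2 (-1.76 ± 0.34), Satb1 (-1.35 ± 0.13, adjusted p = 8.81e-08), Klf3 (-0.87 ± 0.14) and Lef1 (-0.62 ± 0.13). Foxo1 (95% interval -0.53 to 0), Klf2 (-0.79 to -0.02) and Id2 (-0.84 to -0.13) did not pass. On day 7 every CD8 library lay below every CD4 library for all 9. On day 0 every CD8 library lay above every CD4 library for Klf2 and Id3 and below for Lef1, and the others overlapped. How many of all genes separate in this way was not counted.

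The change by day 7 itself differed between the cell types for 7 of 9 factors, each with a more negative value in CD8 cells, where 8.78% of all genes passed the test of the difference (an interaction term over all 30 libraries). The difference (CD8 change minus CD4 change, log2) was -2.62 ± 0.49 for Id3 (adjusted p = 0.00108, edgeR), -2.44 ± 0.34 for Tcf7 (4.91e-05), -1.85 ± 0.46 for Bach2 (0.0125) and -1.27 ± 0.18 for Satb1 (5.21e-05). It was smaller for Klf2 (-1.03 ± 0.28, adjusted p = 0.0223), Id2 (-0.86 ± 0.26, adjusted p = 0.0379) and Klf3 (-0.75 ± 0.20, adjusted p = 0.0209). For Id2 the sign means a smaller gain in CD8 cells. Lef1 (-0.48 ± 0.18, 0.105) and Foxo1 (-0.36 ± 0.19, 0.255) did not pass. The first 4 held whichever library was left out, whereas Id2 was lost in 9 of 12 such settings, Klf3 in 4 and Klf2 in 3; without CD8 day 7 untreated replicate 1, or with only the 4 groups fitted, 4 of 9 passed.

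**Figure D4:**
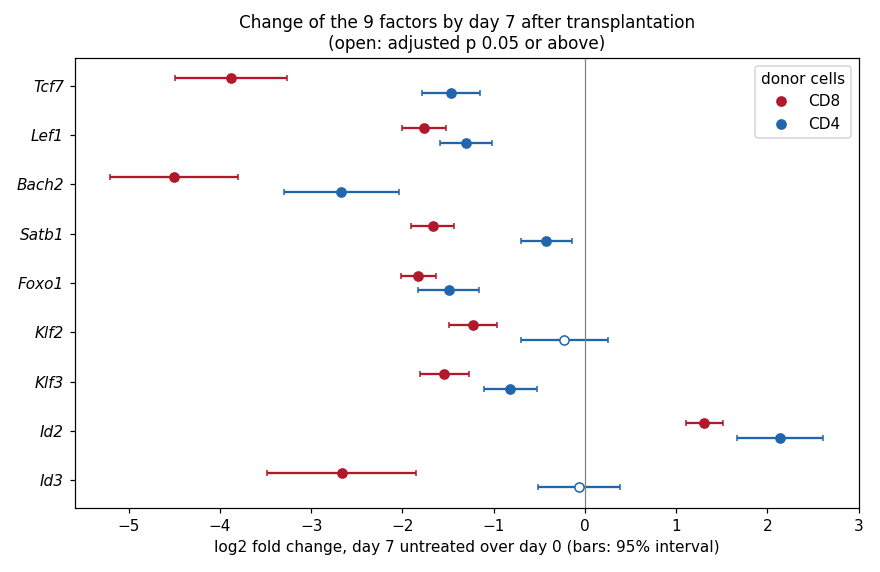
Log2 fold change of day 7 untreated over day 0 (bars: 95% interval) of each factor in donor CD8 (red, upper) and CD4 cells (blue, lower); open circles had an adjusted p of 0.05 or above. The intervals of CD8 and CD4 cells overlap for Lef1 and Foxo1 and lie apart, with CD8 to the left, for the other factors; Id2 is right of 0 in both.

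Companion genes were counted in the same comparisons, where 60.7% of all genes passed in CD8 and 35.6% in CD4 cells. Of 14 tested FOXO1 and KLF2 targets and naive homing genes, 2 rose and 9 fell by day 7 in CD8 cells (median log2 -1.06), and 2 rose and 6 fell in CD4 cells (-0.44). Ccr7 (log2 -5.81 in CD8 and -3.19 in CD4) and the naive cell gene Dapl1 (-6.21 and -4.75) fell in both. Of 12 other FOXO and KLF genes, 1 rose and 9 fell in CD8 cells (such as Foxp1, -1.81) and 2 rose and 7 fell in CD4 cells (Klf4, -3.96; Foxp1, -1.52). Of 18 TCF/LEF partners and Wnt genes, 4 rose and 8 fell in CD8 cells and 0 rose and 3 fell in CD4 cells, a share near that of all genes in CD8 cells; Tcf7l2, a relative of Tcf7 (-4.74 in CD8), and Axin2, a Wnt target (-2.55 in CD8), were among those that fell.

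Of 17 tested quiescence regulators, 2 rose and 11 fell in CD8 cells, including the mRNA decay factor Zfp36 (log2 -3.17) and the antiproliferative genes Btg1 (-2.28) and Tob1 (-1.90), and 3 rose and 6 fell in CD4 cells. E protein and Id family genes fell in 6 of 9 in CD8 cells (Cxcr5, -3.93, and Tcf12, which encodes the E protein HEB, -0.75), a share near the 60.7% of all genes. In CD4 cells 0 of 10 passed, beside 35.6%. Of 12 effector factors, 6 rose and 1 fell in CD8 cells, a share near the 60.7% of all genes, and 7 rose and 1 fell in CD4 cells, beside 35.6%. Tbx21, T-bet, rose by 3.79 (log2) in CD8 and 3.81 in CD4 cells, Batf by 2.34 and 2.24, and Prdm1, Blimp-1, by 3.76 in CD8 cells.

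The test of the difference between the cell types passed for 8.78% of all genes, 4.29% with a more negative change in CD8 cells. In that direction it passed for 5 of 14 homing and target genes (Ccr7 -2.64, Il6ra -2.97) and 3 of 10 E protein genes (Cxcr5 -3.85, Cbfa2t3 -3.58, Tcf12 -1.10). It also passed for 4 of 17 quiescence regulators (Tob1 -1.97, Btg2 -1.02, Btg1 -0.70) and for 0 of 12 FOXO and KLF genes. Of 18 Wnt genes Axin2 (-2.29) was more negative and Nkd1 (5.14) more positive in CD8 cells. Of 12 effector factors, 2 were more positive (such as Prdm1, 1.91) and 3 more negative (such as Maf, -3.22).

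Transfer of iNKT cells moved none of the 9 factors past the threshold. In CD8 cells on day 7, 0 of 9 passed after iNKT17, iNKT2 or iNKT1 transfer against untreated with edgeR, where 0.206%, 0.11% and 0.158% of all genes passed; 3, 3 and 1 members were at an unadjusted p under 0.05, and DESeq2 passed 0 in each. In CD4 cells 0 of 9 passed as well, where 0%, 0% and 0% of all genes passed; 1, 0 and 1 members were at an unadjusted p under 0.05, and DESeq2 passed 0 in each. The 3 treatments are set against the same untreated libraries, so their values are not independent of each other.

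Satb1, Bach2, Tcf7 and Id3 had the largest values, in CD8 cells given iNKT17 or iNKT2 cells. Satb1 had 298.2, 251.7 and 352.8 CPM after iNKT17 and 267, 323.1 and 312 CPM after iNKT2 transfer, against 237.8, 217 and 238.5 CPM in untreated mice. All 6 libraries lay above the untreated ones, with log2 fold changes of 0.38 ± 0.12 for iNKT17 (adjusted p = 0.163, edgeR) and 0.38 ± 0.12 for iNKT2 (adjusted p = 0.184), and 95% intervals of 0.15 to 0.61 for both. After iNKT1 transfer Satb1 had 254.1, 226.4 and 259.8 CPM (log2 0.10 ± 0.12). Bach2 had 5.793, 5.738 and 6.176 CPM after iNKT17, 5.895, 8.732 and 3.97 CPM after iNKT2 and 4.291, 2.673 and 6.666 CPM after iNKT1 transfer, against 2.859, 2.399 and 4.722 CPM in untreated mice. The iNKT17 libraries all exceeded the untreated ones (log2 0.83 ± 0.33, adjusted p = 0.287, edgeR; interval 0.18 to 1.48). After iNKT2 transfer the groups overlapped and the value was 0.92 ± 0.33 (adjusted p = 0.259; interval 0.26 to 1.57). All day 7 libraries were far below those of day 0.

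Tcf7 had 152.4, 130.7 and 85.27 CPM after iNKT17, 104.1, 171.9 and 80.02 CPM after iNKT2 and 83.69, 60.15 and 100.1 CPM after iNKT1 transfer, against 65.67, 60.74 and 99.9 CPM in untreated mice. Groups overlapped, and the log2 fold changes were 0.70 ± 0.28 for iNKT17 (adjusted p = 0.297, edgeR; interval 0.14 to 1.25), 0.66 ± 0.28 for iNKT2 (adjusted p = 0.348; interval 0.10 to 1.21) and 0.12 ± 0.28 for iNKT1 (interval -0.44 to 0.67). Id3 had 16.98, 26.46 and 7.571 CPM after iNKT17 and 17.04, 24.56 and 6.894 CPM after iNKT2 transfer, against 10.27, 9.471 and 10.39 CPM in untreated mice, so in each treated group 1 library lay below and 2 above all untreated ones. In CD4 cells Bach2 had 17.74, 18.18 and 13.85 CPM after iNKT17 transfer against 13.48, 9.491 and 10.55 CPM (log2 0.59 ± 0.31; interval -0.01 to 1.18), all above untreated, and Lef1 had 315.6, 306.4 and 258.3 CPM after iNKT1 transfer against 343.1, 346.1 and 420.9 CPM (-0.32 ± 0.14; interval -0.60 to -0.04), all below. Klf2 after iNKT2 transfer had 459.3, 419.4 and 423.9 CPM against 639.8, 462.1 and 462.8 CPM (-0.26 ± 0.24), also all below. The other CD4 values ran between -0.19 and 0.50. Whether the effects of the 3 transferred sublineages differ from each other, or between CD8 and CD4 cells, was not tested.

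**Figure D5:**
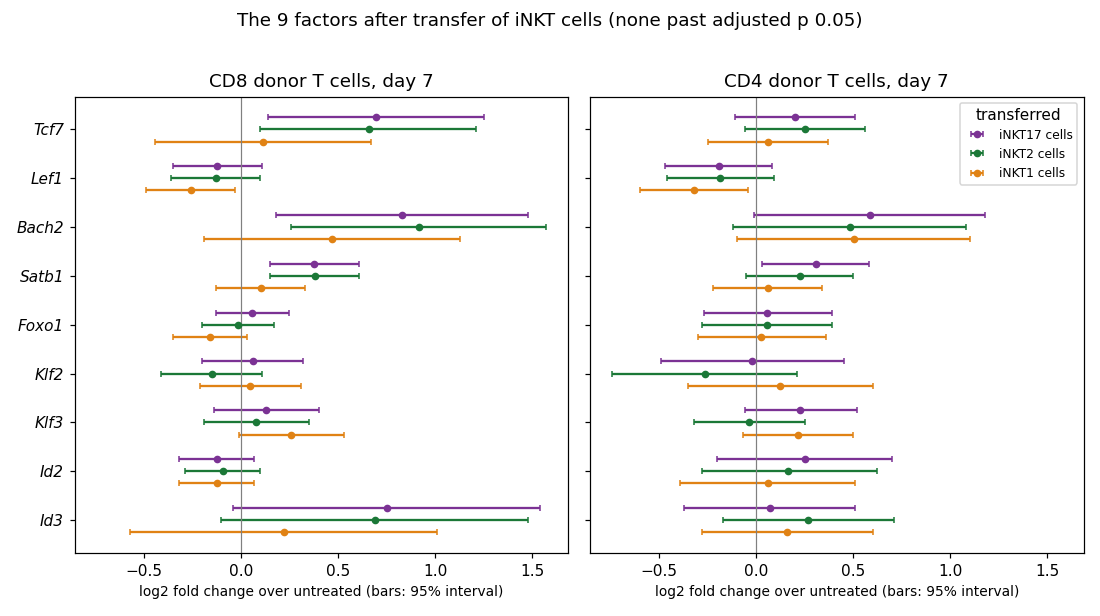
Log2 fold change over untreated (bars: 95% interval) of each factor in donor CD8 (left) and CD4 T cells (right) on day 7 after transfer of iNKT17 (purple), iNKT2 (green) or iNKT1 cells (orange). None passed an adjusted p of 0.05; the intervals of Satb1, Bach2 and Tcf7 lie right of 0 after iNKT17 and iNKT2 transfer in CD8 cells.

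Of the 6 companion lists, 1 gene passed after any transfer with 1 term per group: Cbfa2t3, an E protein corepressor, higher in CD8 cells given iNKT17 cells. It was 1 of 9 tested genes of its list in that comparison, where 0.206% of all genes passed. It had 2.088, 1.721 and 3.733 CPM after iNKT17, 1.857, 1.728 and 2.166 CPM after iNKT2 and 0.5492, 0.3818 and 1.602 CPM after iNKT1 transfer, against 0.09975, 0.1894 and 0.5115 CPM in untreated mice. The lowest iNKT17 and iNKT2 libraries lay above every untreated one (log2 3.25 ± 0.61, adjusted p = 0.046, edgeR), with 2.87 ± 0.61 after iNKT2 (adjusted p = 0.0841) and 1.70 ± 0.62 after iNKT1 transfer (adjusted p = 0.268). Levels were low in every group, and the call was near the threshold. With only the compared groups, calls over all genes in the iNKT17 comparison fell from 30 to 6. With a block by column number, 2 genes of its list and 1 effector factor passed there. No value with a library left out is given for Cbfa2t3.

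The 30 donor T cell libraries differ in day, cell type and treatment and were scaled together. Across them, the genes whose log2 CPM ran most like each member were Znrf1 for Tcf7 (Pearson r 0.98), Ccr7 for Lef1 (0.961), Scml4 for Bach2 (0.983), Prkd2 for Satb1 (0.968), Zfp36 for Foxo1 (0.982), Map4k2 for Klf2 (0.937), Fam101b for Klf3 (0.956), Arl4d for Id2 (0.965) and Nsg2 for Id3 (0.936), among the 7249 genes whose mean log2 CPM reached 4. Among the members, Tcf7 ran with Bach2 (0.955) and Klf3 (0.951), while Id2 ran against Foxo1 (-0.765). Libraries of a group are close to each other, and groups of another day or cell type lie further apart. With edgeR, 60.7% (CD8) and 35.6% (CD4) of all genes passed by day. Between cell types 8.59% passed on day 0 and 14.5% on day 7. Between treated and untreated groups of day 7 at most 0.206% passed. These values therefore mostly describe differences by day and cell type and are given with no p.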

How the data were processed

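Whole-number counts per gene (RNA), per region (ATAC) and per gene and barcode (UMIs) were taken as the authors deposited them. The submitters' processing notes list STAR 2.5.4, kallisto, Cell Ranger 2.1, Bowtie2, MACS2, bedtools 2.27.1, HOMER 4.9.1 and DESeq2 1.22.2, and builds mm10 and GRCm38, without saying which tool made which table; region coordinates are printed as the tables name them. Per the labels' protocols, iNKT RNA libraries came from the TruSeq stranded mRNA kit and donor T cell libraries from SMARTer v4 and Nextera XT. Whether counting used strand is not given in the sources used here, so reads of Tcf7 and Skp1, Bach2 and Bach2os, and Klf3 with Gm38457 and Gm31684, whose spans overlap, may be shared. Exon lengths were not used, so levels were compared between genes only in UMIs.

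The 9 members and the companion lists were chosen with earlier results of these data known. Named genes were the 9 members, up to 3 called genes of smallest p per companion list and comparison, and the 1 gene of highest likeness of the 3 listed per member; ATAC regions named were the region nearest each 5′ end and the called regions of smallest p per gene, and further regions and companion values were named after their values were seen. Tests used edgeR 4.0.16 in R 4.3.3, with filterByExpr by group, TMM scaling, robust quasi-likelihood fit with 1 term per group, Benjamini-Hochberg adjustment over all features and a threshold of 0.05 on the adjusted p. Separate fits were made for the 6 iNKT RNA, 6 ATAC, 15 CD4, 15 CD8 or all 30 donor T cell libraries, with 12372, 54520, 15031, 14586 and 15601 features tested. CPM uses the TMM factors, and ± is the SE of the log2 fold change. The script was tested on simulated data. Alternatives were DESeq2 1.42.0, its size factors in edgeR, no filter, only the compared groups, a replicate block and each library left out.

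Same-numbered ATAC libraries deviated together in every pair of groups (correlations 0.602, 0.438 and 0.515 over regions), although the labels do not say what a number shares. ATAC results come from the fit with 1 term per group, and the value with a replicate block is given where it changes a call or moves a count by over 1.5 times. Donor T cell titles name 2 experiments, but columns could be matched to groups only (3 CD8 day 0 columns share a name), so their replicate numbers here follow column order and no experiment term was fitted; a block by the number in the column names was added after the data were seen. Single-cell barcodes were kept at 1000 UMIs or more, 73.9% and 76.1% of all UMIs, with no doublet caller. The 4 CD4-positive and CD4-negative iNKT1 RNA samples were not analysed here. Some genes that the naming rule picks, and a marker list that holds one, are not reported here.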

Additional observations from a re-analysis of the deposited data

Results flagged for a closer look

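The change from day 0 to day 7 in untreated donor T cells differed between CD8 and CD4 cells for 7 of the 9 factors, by edgeR's test of the difference itself over 30 libraries with Benjamini-Hochberg adjustment. The difference (CD8 change minus CD4 change, log2) was -2.435 for Tcf7, -1.853 for Bach2, -1.273 for Satb1, -1.026 for Klf2, -0.748 for Klf3, -0.856 for Id2 and -2.624 for Id3. The values of Tcf7, Bach2, Satb1 and Id3 passed whichever library was left out. Id2 is the member of the 7 that rose in both cell types, and Id3 and Klf2 are those that fell in CD8 cells and did not pass in CD4 cells. Their log2 values in CD4 cells were -0.064 (Id3) and -0.225 (Klf2). Without CD4 day 0 replicate 3 the Klf2 value passed as lower in CD4 cells with edgeR. Groups of 2 or 3 libraries are too small for a test of single outlying libraries.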

How the results depend on the processing

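With 1 library left out, called member values kept the call in 222 checks and lost it in 26; with other settings (other size factors, no low-count filter, DESeq2, the replicate block, only the compared groups), 161 kept it and 8 lost it, and no called value changed sign. Named ATAC regions kept 90 calls and lost 34 with 1 library left out, and kept 154 and lost 1 otherwise. The cause of the changes below was not tested. Members called between iNKT17 and iNKT2 numbered 1, but 0 with DESeq2-style size factors, 0 with only the compared groups and 3 with DESeq2; between iNKT17 and iNKT1 3, but 5 without the filter and 6 with DESeq2; between CD8 and CD4 on day 0 0, but 1 with DESeq2-style size factors and 1 with DESeq2; for the interaction 7, but 4 with only the compared groups. Regions called between iNKT17 and iNKT2 numbered 7, but 11 with DESeq2 and 20 with the replicate block.

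Leaving out each library in turn gave 2 to 4 members (iNKT2 over iNKT1 RNA), 3 to 6 (iNKT17 over iNKT1 RNA), 22 to 37 regions (iNKT2 over iNKT1), 28 to 40 (iNKT17 over iNKT1), 0 to 9 (iNKT17 over iNKT2), 0 to 1 member (CD8 over CD4, day 0) and 4 to 7 (interaction). Values that crossed 0 were all uncalled. Their log2 ranges were iNKT2 over iNKT1 RNA (Bach2 -5.11 to 0.14, Foxo1 -0.47 to 0.38), iNKT17 over iNKT2 RNA (Klf3 -8.69 to 6.33), iNKT17 over iNKT1 ATAC (Lef1 region chr3:131111118-131111299 -0.089 to 0.18, Tcf7 region chr11:52282991-52283517 -0.41 to 0.18), iNKT17 over iNKT2 ATAC (Foxo1 region chr3:52268188-52268646 -0.041 to 0.14, Id2 region chr12:25095787-25096347 -0.32 to 0.22, Klf2 region chr8:72318548-72319452 -0.21 to 0.034, Satb1 region chr17:51832876-51833533 -0.26 to 0.33, Tcf7 region chr11:52282991-52283517 -0.027 to 0.53), CD4 day 7 iNKT1 over untreated (Foxo1 -0.032 to 0.096, Id2 -0.008 to 0.096, Satb1 -0.028 to 0.14, Tcf7 -0.004 to 0.14), CD4 day 7 iNKT17 over untreated (Id2 -0.007 to 0.38, Id3 -0.12 to 0.27, Klf2 -0.15 to 0.16), CD4 day 7 iNKT2 over untreated (Klf3 -0.20 to 0.051), CD4 day 7 over day 0 (Id3 -0.17 to 0.10), CD8 day 0 over CD4 day 0 (Bach2 -0.17 to 0.28, Foxo1 -0.11 to 0.20, Tcf7 -0.10 to 0.17), CD8 day 7 iNKT1 over untreated (Klf2 -0.081 to 0.12, Tcf7 -0.065 to 0.38), CD8 day 7 iNKT17 over untreated (Klf2 -0.065 to 0.14, Klf3 -0.029 to 0.33) and CD8 day 7 iNKT2 over untreated (Foxo1 -0.071 to 0.064, Klf3 -0.081 to 0.28). The Lef1 region chr3:131111118-131111299 (iNKT17 over iNKT1) was also -0.023 with DESeq2-style size factors and -0.02 with DESeq2.

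iNKT RNA libraries share only a replicate number (correlations of same-numbered deviations -0.125, 0.061 and -0.039). The replicate block there left the counts at 4, 3 and 1 and turned the sign of the uncalled Klf3 value between iNKT17 and iNKT2 alone (log2 -0.29 with the block, 0.13 without). In ATAC the block changed no other count of member regions by over 1.5 times (51 for iNKT2 and 57 for iNKT17 over iNKT1). Donor T cell columns carry numbers that no label ties to samples. Same-numbered CD8 and CD4 columns of a day 7 treatment correlated at -0.027 to 0.265 (over 0.1 in 9 of 12 pairs), others at -0.304 to 0.152. A replicate block by column number, chosen after seeing the data, left the member counts of the CD4 comparisons and CD8 treatments unchanged and gave 8 in place of 6 between CD8 and CD4 on day 7, adding Foxo1 (log2 -0.28, adjusted p = 0.0203, edgeR) and Id2 (-0.50, adjusted p = 0.00901). No paired analysis was possible for the comparisons with CD8 day 0 because its 3 columns share a name.

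Over all features, counts moved by over 1.5 times as follows. For iNKT RNA (159, 247 and 88 for iNKT2 over iNKT1, iNKT17 over iNKT1 and iNKT17 over iNKT2), counts were 445, 559 and 339 without the filter and 1180, 1829 and 1482 with DESeq2, and 43 with only the compared groups for iNKT17 over iNKT2. ATAC iNKT17 over iNKT2 gave 4549, and 10102 with the block. CD4 treatments (0 genes each) gave 122, 119 and 212 with DESeq2 for iNKT1, iNKT2 and iNKT17, 3 for iNKT1 with only the compared groups, and 4 (other size factors) and 1 (no filter) for iNKT17, and 2, 4 and 11 with the column block. CD8 treatments (23, 16 and 30) gave 386, 355 and 476 with DESeq2, 3, 2 and 6 with only the compared groups, 3, 5 and 34 with the column block and, for iNKT17, 57 without the filter. Only the compared groups gave 452 in place of 1340 (CD8 over CD4, day 0) and 626 in place of 1370 (interaction, 2059 with DESeq2). With 1 library left out, counts ran from 153 to 315, 195 to 1040 and 157 to 831 (iNKT RNA), 11572 to 17855, 12884 to 17368 and 1572 to 4985 (ATAC), 0 to 9, 0 to 35 and 1 to 49 (CD8 treatments iNKT1, iNKT2, iNKT17), 848 to 1995 (interaction) and 1452 to 1944 (CD8 over CD4, day 7, 3760 with the column block). Among companion list counts, 806 stayed within 1.5 times across settings and 100 did not. Raising or lowering the UMI minimum to 2000 or 500 moved no single-cell level outside its interval.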
